A study of Mus musculus with 8 samples.

Results

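The carboxylesterases described here are 6 mouse genes, Ces1d, Ces1e, Ces1f, Ces1g, Ces2c and Ces2e, among 15948 genes in a kidney RNA sequencing table. They were selected on their measured levels and group difference in these same libraries, so those values are given as a description, without a test. All 6 were present. The 2 labelled groups were sequenced from whole kidney by stranded, paired-end mRNA sequencing. The control group, 5 libraries labelled Sglt2Cre_DOCA, carries the Cre recombinase driven by Sglt2, a glucose transporter gene of the early proximal tubule, and received DOCA. The other group, 3 libraries labelled Arhgef11Sglt2_DOCA and called Arhgef11Sglt2 below, comes from a study of proximal tubule deletion of Arhgef11 and also received DOCA. DOCA is deoxycorticosterone acetate, a mineralocorticoid used to raise blood pressure, so both groups share the steroid and no group without it was analysed here. The genotype field is not filled in, and the labels give no allele, strain, sex or age. The labels do not state that each library is a separate animal, so p-values below measure the spread between libraries.

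Carboxylesterases are serine hydrolases that split ester, amide and thioester bonds in triacylglycerol, cholesteryl esters and many drugs. Most lie in the lumen of the endoplasmic reticulum, held there by a short signal at the end of the protein, while the mouse plasma enzyme Ces1c lacks that signal and is secreted. In kidney they are chiefly proximal tubule enzymes, and in rodents several of them respond to sex hormones and to nuclear receptors that sense drugs and lipids.

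The members lie in both carboxylesterase clusters of chromosome 8. On GRCm38, the build of the reference used for sequence, Ces1d, Ces1e, Ces1f and Ces1g follow each other on the minus strand (chr8:93166068-93337308), and Ces2c and Ces2e lie on the plus strand (chr8:104847068-104934672). The deposited table gives gene identifiers without coordinates and was made on GRCm39. The stretch around the catalytic serine is shown because it is the site that makes all 6 genes esterases. Each line gives 45 coding bases of the GENCODE M21 transcript, 5′ to 3′, with capitals on the 5 codons for glycine, glutamate, serine, alanine and glycine.
Ces1d: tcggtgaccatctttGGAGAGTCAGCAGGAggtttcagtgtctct
Ces1e: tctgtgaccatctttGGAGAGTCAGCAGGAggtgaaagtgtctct
Ces1f: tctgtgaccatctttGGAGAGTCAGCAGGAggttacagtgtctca
Ces1g: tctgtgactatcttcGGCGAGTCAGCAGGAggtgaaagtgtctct
Ces2c: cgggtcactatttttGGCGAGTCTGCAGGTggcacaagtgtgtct
Ces2e: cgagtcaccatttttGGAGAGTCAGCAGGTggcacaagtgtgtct

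The 4 Ces1 sequences differ from each other at 3 to 7 of the 45 bases and from the Ces2 pair at 10 to 15. The end of the coding sequence carries the retention signal, and the last 30 bases, with the 4 codons before the stop in capitals, are shown because the signal is kept there while the bases vary.
Ces1d: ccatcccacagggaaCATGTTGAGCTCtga
Ces1e: caactgccgacagaaCACACTGAGCTGtga
Ces1f: caaccccagccatacCACAATGAGCTGtga
Ces1g: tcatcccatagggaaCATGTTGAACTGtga
Ces2c: gcttctcaggacaagCACAGGGAGCTTtag
Ces2e: gggtctcaggagaggCACAAAGAGTTGtag

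Here the Ces1 members differ from each other at 4 to 13 of the 30 bases. In all 6 the capitals encode histidine, a varying residue, glutamate and leucine, the endoplasmic reticulum form. Of the other carboxylesterases listed in the table, Ces1h, Ces2b, Ces2g and Ces2h end in the same form, and Ces1c and Ces2f do not. The coding sequences were 74.6% identical (Ces1f with Ces1g) to 81.6% identical (Ces1d with Ces1g) among the Ces1 members. Ces2c and Ces2e were 83.8% identical, and pairs across the families 59.4% to 61.7%.

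Near-identical copies bear mainly on Ces2c. Of all 31-base words in its transcript, 58.2% occur in transcripts of other genes, and the words shared with single genes overlap: 50.2% occur in the pseudogene Ces2d-ps, 28.9% in Gm8798, 14% in Ces2b and 11.3% in Gm6831. The longest stretch made up only of shared words spanned 186 bases. How reads were divided between these genes and Ces2c cannot be seen, and Ces2d-ps has no row in the table, so the Ces2c values are uncertain to that extent. The other 5 members share 5.54% (Ces1f) to 8.77% (Ces2e) of their words, so most of each transcript is its own.

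**Figure D1:**
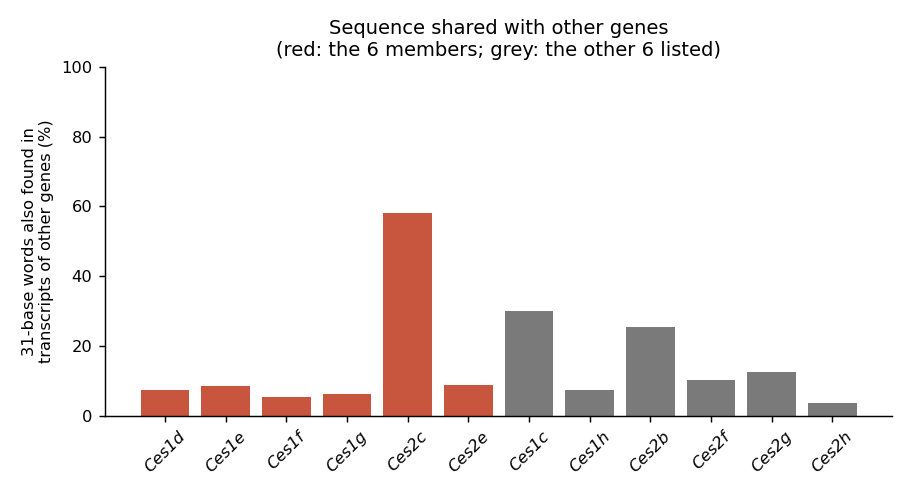
Bars give the percent of 31-base words in the transcript of each carboxylesterase gene that also occur in transcripts of other genes, with the 6 members in red and the other 6 listed genes in grey. Ces2c stands at 58.2%, while the other members stay below 9%.

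Values below are normalized counts, that is, estimated read counts scaled between libraries and brought back from the deposited log2 scale. Fold changes are ratios of group means of normalized counts. Log2 differences are taken on the deposited scale, which pulls in the differences of genes with few counts. Among all 15948 genes, limma with Benjamini-Hochberg adjustment called 354 at adjusted p under 0.05, or 2.22%, of which 254 (1.59% of all genes) were lower and 100 higher in Arhgef11Sglt2. With libraries rescaled to equal totals the split was 178 lower and 149 higher. Every Arhgef11Sglt2 library lay below every control library for 8.14% of genes. Of the 6 members 3 were called, all lower, and the same 3 had groups that did not overlap. Because that contrast chose the members, nothing is read from these counts.

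The 3 were Ces1d, Ces1e and Ces1f, neighbours on the chromosome. Ces1f, a broad esterase also described as a triacylglycerol hydrolase, had the largest difference among the members on the log2 scale. Its control libraries held 9178, 23418, 15295, 16952 and 18793 normalized counts, and the Arhgef11Sglt2 libraries 7362, 3292 and 5802. The groups did not overlap, although control replicate 1 was much closer to Arhgef11Sglt2 replicate 1 than to the other controls. Means were 16727 ± 5199 (SD, n = 5) and 5485 ± 2054 (SD, n = 3), a level 3.05-fold lower, with a log2 difference of -1.52 (SE 0.29). In whole kidney, fewer cells of a type and less RNA per cell cannot be told apart, here or for any gene below.

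Ces1d is the triacylglycerol hydrolase that frees fatty acids from stored lipid in liver and fat. Control values of Ces1d were 9712, 13600, 9741, 9611 and 8825 normalized counts, and Arhgef11Sglt2 values 5364, 5345 and 6321. The other controls were tightly grouped below control replicate 2, and every Arhgef11Sglt2 library was lower than every control. The means were 10298 ± 1884 (SD, n = 5) and 5677 ± 558 (SD, n = 3), 1.81-fold lower, with a log2 difference of -0.79 (SE 0.13).

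Ces1e encodes egasyn, the esterase that holds β-glucuronidase in the endoplasmic reticulum. It was measured at 2518, 2357, 2212, 2872 and 3110 normalized counts in controls and at 714, 1589 and 1505 in Arhgef11Sglt2. Arhgef11Sglt2 replicate 1 was the lowest library, and again the groups did not overlap. Means of 2614 ± 371 (SD, n = 5) and 1270 ± 483 (SD, n = 3) gave a 2.06-fold lower level and a log2 difference of -0.86 (SE 0.18). Gusb, which encodes β-glucuronidase itself, had means of 1737 ± 151 (SD, n = 5) and 1602 ± 283 (SD, n = 3), with overlapping groups and a limma adjusted p of 0.598. Gusb was singled out after its values were seen.

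Ces1g, a lipase whose loss raises liver lipid synthesis in mice, was the least abundant and most variable member. Normalized counts of Ces1g were 47.4, 1077, 95.8, 109.0 and 333.0 in controls and 23.8, 36.4 and 109.1 in Arhgef11Sglt2. Control replicate 2 was far above the others, and the groups overlapped. The mean was 332 ± 431 (SD, n = 5) against 56.4 ± 46.0 (SD, n = 3), 5.89-fold lower, which became 2.59-fold without control replicate 2 and 11.0-fold without Arhgef11Sglt2 replicate 3. Its log2 difference was -0.66 with an SE of 0.37.

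**Figure D2:**
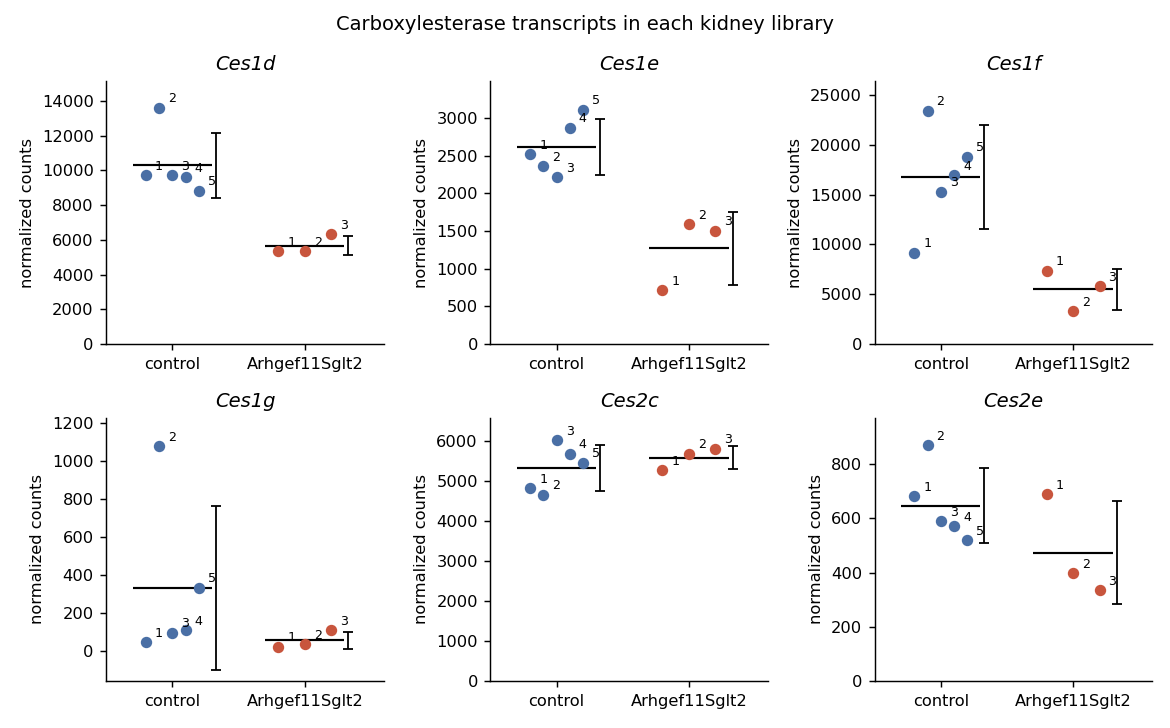
Each panel shows normalized counts of one member in every library, numbered by replicate, for 5 control libraries (blue) and 3 Arhgef11Sglt2 libraries (red), with the group mean as a line and its SD as a bar. Ces1d, Ces1e and Ces1f do not overlap between groups, Ces1g is dominated by control replicate 2 at 1077, and Ces2c lies at the same height in both.

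The Ces2 members differed less. Ces2c, counterpart of the human intestinal and liver enzyme CES2 and an acylglycerol hydrolase, had 4815, 4648, 6014, 5671 and 5448 normalized counts in controls and 5256, 5670 and 5799 in Arhgef11Sglt2. All 3 Arhgef11Sglt2 libraries lay inside the control range. Its means were 5319 ± 576 (SD, n = 5) and 5575 ± 284 (SD, n = 3), a ratio of 1.05, and its log2 difference was 0.07 (SE 0.09). The limit from shared sequence given above applies to these values.

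Ces2e, its cluster neighbour, stood at 681, 871, 591, 571 and 520 normalized counts in controls and at 689, 399 and 334 in Arhgef11Sglt2. Replicates 2 and 3 of Arhgef11Sglt2 were below every control, and replicate 1 was above 4 of the 5. The means, 647 ± 138 (SD, n = 5) and 474 ± 189 (SD, n = 3), differed 1.36-fold, and the log2 difference was -0.27 (SE 0.14).

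Of 13 further carboxylesterase genes looked for, 6 were listed and 7 were not analysed here. These 6 genes are no independent check, because the members and lists were chosen with earlier results of these data known. Of them, 2 were called lower, beside 1.59% of all genes. Ces2h had 76.8, 89.99, 140.6, 97.8 and 121.7 normalized counts in controls and 41.7, 32.8 and 12.7 in Arhgef11Sglt2. The groups did not overlap, and the mean fell 3.62-fold, from 105 ± 26 (SD, n = 5) to 29.1 ± 14.9 (SD, n = 3), with a log2 difference of -0.42 (SE 0.08, limma adjusted p = 0.0331). That call was lost without control replicate 3 (adjusted p = 0.0643), 4 (0.0798) or 5 (0.0829) or Arhgef11Sglt2 replicate 3 (0.118).

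Ces2g fell as well, from 265, 311, 231, 305 and 323 normalized counts in controls to 196, 148 and 132. With means of 287 ± 38 (SD, n = 5) and 159 ± 33 (SD, n = 3), it was 1.81-fold lower without overlap (log2 difference -0.34, SE 0.07, limma adjusted p = 0.0467). Leaving out any single library other than Arhgef11Sglt2 replicate 1 ended this call, with adjusted p from 0.0573 to 0.173, and so did rescaling to equal totals (0.0618) or a term for the library number range (0.0551). Ces2b, whose coding sequence is 92.1% identical to that of Ces2c, had means of 171 ± 22 (SD, n = 5) and 104 ± 36 (SD, n = 3) and a limma adjusted p of 0.115, and was called without Arhgef11Sglt2 replicate 1 (0.0346). Ces2f, Ces1c and Ces1h were near the bottom of the scale, with control means of 15.8, 5.7 and 3.4 normalized counts, and were not called.

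**Figure D3:**
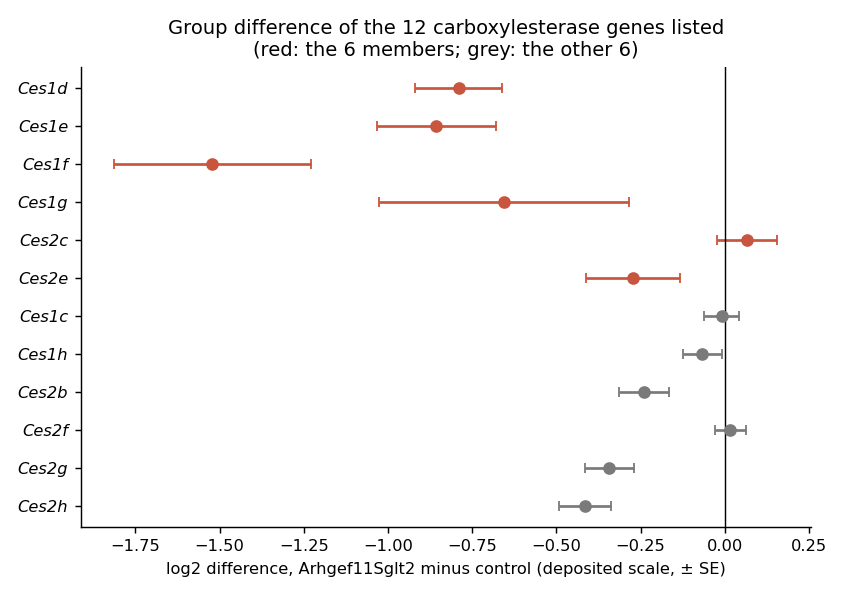
Points give the log2 difference, Arhgef11Sglt2 minus control, on the deposited scale, with its SE as a bar, for the 6 members (red) and the 6 other listed carboxylesterases (grey). Ces1f lies farthest from 0 at -1.52, and Ces2c, Ces1c and Ces2f lie close to 0.

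Levels of different genes were compared per kilobase of transcript. In controls the order was Ces1f (8685 ± 2699 normalized counts per kb, SD, n = 5), Ces1d (5139 ± 940), Ces2c (2700 ± 293), Ces1e (1261 ± 179), Ces2e (240 ± 51) and Ces1g (139 ± 180). Ces1f stood above Ces1d in 4 of 5 control libraries and Ces2e above Ces1g in 4 of 5, so those neighbours lay within their spread, whereas the other neighbours kept their order in 5 of 5. In Arhgef11Sglt2 only the means of the upper 3 genes were level. Ces1f stood at 2848 ± 1066 normalized counts per kb (SD, n = 3), Ces1d at 2833 ± 278 and Ces2c at 2830 ± 144. Their order changed between libraries, with Ces1f above Ces1d in 1 of 3 and Ces1d above Ces2c in 2 of 3. The limit from shared sequence applies to Ces2c here too. Below these 3 genes Ces1e stood at 612 ± 233, Ces2e at 176 ± 70 and Ces1g at 23.6 ± 19.3 normalized counts per kb, in the same order in 3 of 3 libraries.

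Summed over the 6 genes, carboxylesterase transcripts came to 13543, 23215, 17182, 18119 and 18759 normalized counts per kb in controls and to 9777, 8184 and 10006 in Arhgef11Sglt2. The lowest control was above the highest Arhgef11Sglt2 library. Within that sum, Ces1f made up 35.2%, 52.4%, 46.2%, 48.6% and 52.0% in controls and 39.1%, 20.9% and 30.1% in Arhgef11Sglt2, overlapping through control replicate 1. The share of Ces2c was 18.0%, 10.2%, 17.8%, 15.9% and 14.7% in controls and 27.3%, 35.2% and 29.4% in Arhgef11Sglt2, without overlap. A share rises when the other genes fall, and the Ces2c level itself overlapped between the groups.

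**Figure D4:**
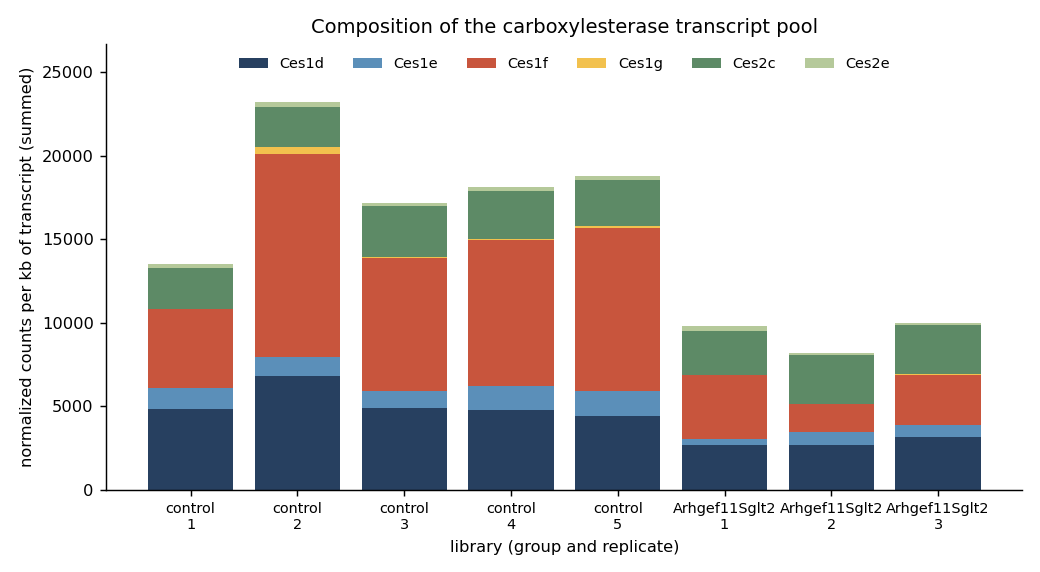
Stacked bars give normalized counts per kb of the 6 members in each library, labelled by group and replicate. The Ces1f segment is the tallest in 4 of the 5 controls, and the whole bar ranges from 13543 to 23215 in controls and from 8184 to 10006 in Arhgef11Sglt2.

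The members also differed in how much they varied among controls. The coefficient of variation was 10.8% for Ces2c, 14.2% for Ces1e, 18.3% for Ces1d, 21.4% for Ces2e, 31.1% for Ces1f and 130% for Ces1g. Over the 8 libraries, Ces1d and Ces1f had a Pearson r of 0.87 on the deposited scale, which was 0.41 after the group means were removed. Ces1d and Ces1g had an r of 0.73, and 0.78 after the group means, both high in control replicate 2. Ces1e went with Ces1d at an r of 0.75, but at -0.10 after the group means, so those neighbours were alike in the group difference and not within the groups. Ces2c and Ces2e ran opposite to each other at -0.74, and at -0.73 after the group means. These correlations rest on 8 libraries with a common scaling and are descriptions.

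Among 9640 genes with a mean of at least 500 normalized counts, the most similar to Ces1f over the 8 libraries were Hspd1, the mitochondrial chaperonin (r = 0.992), Cyp2j13, a male-biased kidney cytochrome P450 (r = 0.991), and Acy3, an aminoacylase (r = 0.978). After the group means were removed these stood at 0.971, 0.964 and 0.915. Closest to Ces1e were Hnmt, which methylates histamine (r = 0.981), Khk, the ketohexokinase of fructose breakdown (r = 0.973), and Gm11127 (r = 0.963). For Ces1d they were Mrpl41, a mitochondrial ribosomal protein (r = 0.966), Rhbg, an ammonia transporter (r = 0.961), and Atp5f1, a subunit of ATP synthase (r = 0.961). For Ces1g they were Nucks1 (r = 0.954), Trim44 (r = 0.952) and 4930453N24Rik (r = 0.945). Ces2c came nearest to Dolpp1 (r = 0.985), Chsy1 (r = 0.954) and Slc25a37 (r = 0.949), and Ces2e to Dctpp1 (r = 0.990), H3f3a (r = 0.977) and Ccna2 (r = 0.974). After the group means were removed, Ces1e stood at 0.931, 0.899 and 0.859 with its 3 genes, and Ces1d at 0.879, 0.754 and 0.894. For Ces1g, Ces2c and Ces2e these values ran from 0.936 (Trim44) to 0.986 (Dolpp1). The 3 nearest genes of one member were in no case the nearest of another. Taking the best of 9640 genes over only 8 libraries gives a high r by the search itself, so these are descriptions.

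Enzymes with overlapping work were read from lists. Of 18 neutral lipid hydrolases and cofactors, 1 was called, Aadac, an arylacetamide deacetylase of the endoplasmic reticulum. Aadac had 5113, 5633, 5711, 5510 and 5606 normalized counts in controls and 3806, 4604 and 3317 in Arhgef11Sglt2, with no overlap. It was 1.41-fold lower (limma adjusted p = 0.0424), while the median log2 difference of the list was 0.03, against -0.0069 over all genes. Leaving out any control, or Arhgef11Sglt2 replicate 3, ended the Aadac call (adjusted p from 0.0601 to 0.133), and so did equal totals (0.0504) and sample weights (0.0501). Lpl, lipoprotein lipase, had means of 19273 ± 2030 (SD, n = 5) and 12942 ± 3180 (SD, n = 3; limma adjusted p = 0.079), and Lipe, hormone-sensitive lipase, 847 ± 195 and 1567 ± 534 (adjusted p = 0.1). Ddhd2, a phospholipase and triacylglycerol hydrolase, had 1146 ± 62 and 1670 ± 431 (limma adjusted p = 0.102).

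Of 11 other esterases and hydrolases of drugs, Cmbl alone was called. Cmbl, a carboxymethylenebutenolidase that activates ester prodrugs, had control values of 4618, 4923, 4780, 4883 and 4772 normalized counts and Arhgef11Sglt2 values of 2094, 3733 and 2289. Controls were nearly equal and all Arhgef11Sglt2 libraries were lower, 1.77-fold on average (limma adjusted p = 0.0303), and the median of the list was -0.13. The Cmbl call was lost without control replicate 1, 3, 4 or 5 or Arhgef11Sglt2 replicate 3 (adjusted p from 0.0553 to 0.121). Bphl, Ephx2 and Pon3 were next, with negative log2 differences and limma adjusted p of 0.0694, 0.125 and 0.231. Of 7 genes listed for retention in the endoplasmic reticulum none was called by limma. Kdelr1, Kdelr2 and Kdelr3 encode the retention receptors, and the others encode proteins resident there. All 7 had negative log2 differences with a median of -0.13, against 52.0% negative over all genes. The 3 receptors stood at -0.015, -0.129 and -0.059 in that order. The smallest limma adjusted p were 0.16 for the chaperone Calr, 0.178 for Hspa5, 0.226 for Pdia3 and 0.53 for Kdelr2. An unadjusted p under 0.05 was found for 3 of the 7 (Calr, Hspa5 and Pdia3) and for 3367 of all 15948 genes. The mean log2 deviation of the 7 genes from the control mean was 0.069, -0.434 and -0.514 in Arhgef11Sglt2, so replicate 1 was not lower.

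Of 17 transcription factors tied to carboxylesterase genes in liver, 1 was called. Nr1i2 encodes the pregnane X receptor, a drug sensor that raises carboxylesterase transcription in liver. It was at 307, 361, 296, 307 and 269 normalized counts in controls and at 435, 638 and 759 in Arhgef11Sglt2, without overlap. The level was 1.98-fold higher (log2 difference 0.51, SE 0.10, limma adjusted p = 0.0389), opposite in direction to Ces1d, Ces1e and Ces1f. The Nr1i2 call was lost without control replicate 1, 3, 4 or 5 or Arhgef11Sglt2 replicate 2 or 3 (adjusted p from 0.0716 to 0.122). Nr3c1, the glucocorticoid receptor, had means of 5453 ± 505 (SD, n = 5) and 4097 ± 271 (SD, n = 3) and a limma adjusted p of 0.0552. Cebpb, an activator of acute response genes, had 297 ± 58 and 608 ± 259 (limma adjusted p = 0.0898), and Nr1i3, the constitutive androstane receptor, 10.1 ± 7.3 and 31.8 ± 17.4 (0.17). Hnf4a, a main factor of proximal tubule and liver gene expression, had means of 28326 ± 1127 and 25237 ± 4608 (adjusted p = 0.39) and was singled out after its values were seen.

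A RefSeq promoter table (GRCm38.p6, a short window around the start of each gene) held Ces1e, Ces1g, Ces2c and Ces2e, but had no entry for Ces1d and Ces1f. On either strand, the nuclear receptor motif AGGTCA was in 0 of the 4, against 16.3% of 32851 promoters. The steroid receptor motif AGAACA was in 1, that of Ces2c, against 19.0%. The hepatocyte nuclear factor 4 motif CAAAGTCCA was in 0 of the 4, against 0.475%, and so was a direct repeat of AGGTCA with 1 base between, which overlaps the single motif, against 0.0396%. These matches describe letters in a short window.

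Some proximal tubule markers were also lower, and so was 1 gene listed for the thick ascending limb. Of 3 such genes, Cldn10 was called lower, at 1.52-fold (limma adjusted p = 0.0476). Whole-kidney values do not show in which segment Cldn10 was expressed, and whether its call depends on single libraries was not examined. Slc12a1 was 1.62-fold lower (limma adjusted p = 0.0536), and Umod had a ratio of Arhgef11Sglt2 to control of 1.02. The share called lower over all genes was 1.59%, and the marker lists were chosen with earlier results of these data known. Of 6 early proximal tubule markers 2 were called lower, Lrp2, the endocytic receptor megalin, at 1.63-fold, and Slc34a1, the phosphate cotransporter, at 1.62-fold. Their summed level ranged from 357925 to 396736 normalized counts in controls and from 201642 to 316887 in Arhgef11Sglt2. The mean log2 deviation of these 6 genes from the control mean was -0.092 to 0.105 in controls and -0.823, -0.094 and -0.816 in Arhgef11Sglt2. Arhgef11Sglt2 replicate 2, the lowest library for Ces1f, thus had a mean deviation just under the lowest control, but its markers were split. Slc5a12 was at 24377 normalized counts, above every control, and Slc5a2 lay inside the control range. Lrp2, Slc34a1, Gatm and Slc22a6 were below every control in that library, at 85850, 142040, 30421 and 16170 normalized counts. Of 7 markers of the last proximal tubule segment 4 were called lower, Slc7a13, Slc22a30, Acy3 and Mep1b, and the summed level ranged from 158010 to 216936 and from 118084 to 145371. None of these markers was at 0 in any library. Leaving out 1 library ended the Lrp2 call in 6 of 8 cases and the Slc34a1 call in 7 of 8, with adjusted p up to 0.196. Equal totals also ended the Lrp2 call (0.0512), as the library number term (0.0615), log2 of normalized count + 1 (0.0526) and sample weights (0.065) did that of Slc34a1. Leaving out 1 library ended the Slc7a13 call in 5, the Acy3 call in 4 and the Slc22a30 and Mep1b calls in 2 each. Control replicate 4 and Arhgef11Sglt2 replicate 3 were among those libraries for each of these genes. Their part in the carboxylesterase differences was not tested.

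Male-biased kidney genes share Slc7a13, Slc22a30 and Cyp7b1 with the last-segment markers, and their mean deviation, like the level of Ces1f, was lowest among controls in replicate 1. Of 12 such genes 5 were called lower (Slc22a28, Slc22a30, Cyp2j13, Slc7a13 and Acsm3) and 12 had negative differences, with a median log2 difference of -1.60. Over all genes 1.59% were called lower and 52.0% had negative differences, and this list was chosen with earlier results of these data known. Their mean log2 deviation from the control mean was -0.857, 0.022, 0.063, 0.191 and 0.581 in controls and -0.925, -1.623 and -1.419 in Arhgef11Sglt2. Control replicate 1 thus lay beside Arhgef11Sglt2 replicate 1, and Arhgef11Sglt2 replicate 2 was lowest, as for Ces1f. The likeness was partial, since the highest control was replicate 5 for these genes and replicate 2 for Ces1f. Ces1d, also lowest in Arhgef11Sglt2 replicate 2, had its lowest control in replicate 5, at 8825 normalized counts. Ces1e was lowest in Arhgef11Sglt2 replicate 1, at 714 normalized counts. Cyp2j13, the gene of this list most like Ces1f, had 2914, 11631, 8087, 8456 and 10061 normalized counts in controls and 2237, 871 and 1578 in Arhgef11Sglt2. Slc22a28, an organic anion transporter family member with the smallest p of the list, fell 4.08-fold (limma adjusted p = 0.0131) and stayed called with any 1 library left out. The Cyp2j13 call was lost without control replicate 3, 4 or 5 or Arhgef11Sglt2 replicate 2 or 3 (adjusted p from 0.067 to 0.113), and the Acsm3 call in 6 of 8 cases (up to 0.176). Sex is not given in the labels, and the part of these genes in the result was not tested.

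Ces1d and Ces1f are also known from fat, and adipocyte markers differed between libraries. Of 7 such markers 0 were called by limma, and 0 had an unadjusted p under 0.05. The summed level ranged from 2371 to 6958 normalized counts in controls and from 3213 to 4175 in Arhgef11Sglt2, mostly from Fabp4, which is not limited to adipocytes. Cfd, Lep, Plin1 and Retn were each at 0 in at least 1 library. Adipoq, which encodes adiponectin, was at 125, 382, 0, 0 and 0 in controls and at 57.7, 175 and 0 in Arhgef11Sglt2. Control replicate 2 was highest in Adipoq and also in Ces1d, Ces1f and Ces1g. In the 4 libraries with Adipoq at 0, control means were above the 1 Arhgef11Sglt2 library 1.49-fold for Ces1d, 1.81-fold for Ces1e, 2.93-fold for Ces1f and 1.64-fold for Ces1g, a comparison chosen after seeing the data.

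**Figure D5:**
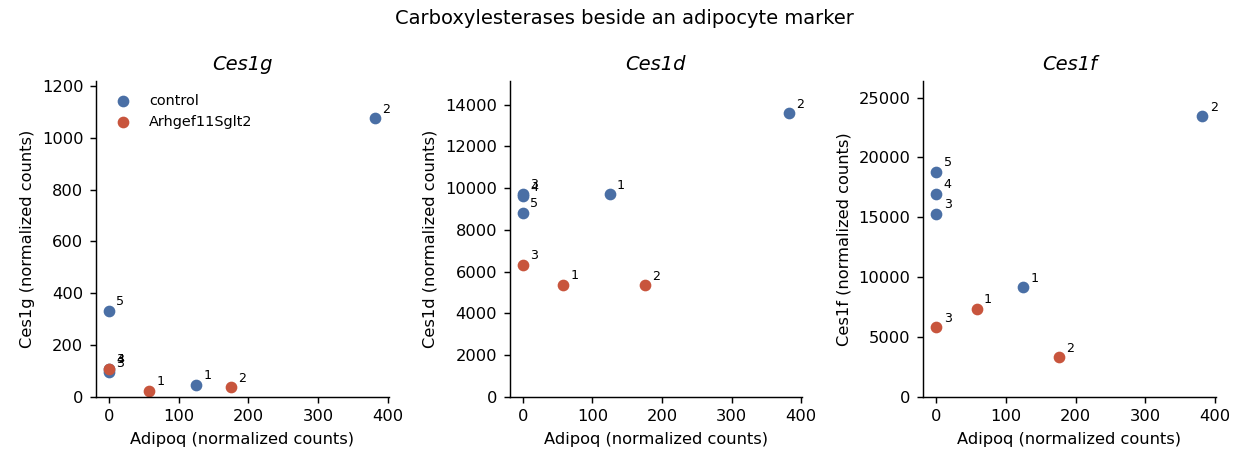
Each point is a library, numbered by replicate, with Adipoq on the horizontal axis and Ces1g, Ces1d or Ces1f on the vertical axis, all in normalized counts, for controls (blue) and Arhgef11Sglt2 (red). Control replicate 2 is at the upper right in each panel, and among the 4 libraries with Adipoq at 0 the 3 controls lie above the Arhgef11Sglt2 library for Ces1d and Ces1f, but not all of them for Ces1g.

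Library numbers in the labels fall into a lower and a higher range, and what they mark is not stated. Within the lower range (3 controls, 2 Arhgef11Sglt2) Ces1f was 3.00-fold lower, Ces1d 2.06-fold and Ces1e 2.05-fold. Within the higher range (2 controls, 1 Arhgef11Sglt2) they were 3.08-fold, 1.46-fold and 1.99-fold lower. Ces1g was 13.5-fold lower in the lower range and 2.03-fold in the higher, and Ces2c stayed near equal at ratios of control to Arhgef11Sglt2 of 0.944 and 0.959.

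As a check of labels, Arhgef11 was at 3629, 3479, 3682, 3680 and 3928 normalized counts in controls and at 2935, 3919 and 3905 in Arhgef11Sglt2 (exact permutation test, two-sided p = 0.732). The 2 groups of libraries were therefore not set apart by the whole-kidney level of the targeted gene, and every direction above is between libraries as labelled. Slc5a2, which encodes Sglt2 itself, was at 19625, 14406, 19197, 21253 and 18236 normalized counts in controls and at 10933, 18027 and 13907 in Arhgef11Sglt2, with overlap (exact permutation test, two-sided p = 0.0536). Reads per library, estimated from the spacing of low values, ran from 33100000 to 59500000 in controls and from 51400000 to 57900000 in Arhgef11Sglt2. The estimate is rough, because only 30.7% to 55.2% of the low values in a library lay near whole steps.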

How the data were processed

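Kidney mRNA libraries were quantified with Salmon 1.10.0 and DESeq2 on GRCm39, per the submitters' processing notes. The authors deposited 1 table of log2 values that behave as DESeq2's variance-stabilized counts, with a shared minimum of 8.1275 in all 8 libraries. This identification comes from the values. Here y, 2 to the power of the deposited value, was turned into normalized counts as (y - 279.7) squared over y. Whole reads could not be recovered (42.2% of low values lay within 0.02 steps of a whole number), so no count test was run.

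Groups came from the titles and treatment labels. Deposited log2 values of 15948 genes were compared with limma 3.58.1 (R 4.3.3, trended variance, all 8 libraries, no covariate), with Benjamini-Hochberg adjustment over all genes and a threshold of 0.05. On simulated data with 200 changed genes among 15948 for this comparison, it recovered 68% at a log2 change of 0.5 and 91.5% at 1. The simulated noise was independent between genes and equally wide in all libraries. Estimated sample weights of the real libraries ran from 0.404 to 2.02, so these rates may not hold for them. Arhgef11 and Slc5a2 were tested by exact permutation over 56 splits, whose smallest p is 0.0179. All other p-values are from limma. Sequence comparisons used GENCODE M21 transcripts and 31-base words.

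The members and lists were chosen with earlier results of these data known. The text names the members, every other listed carboxylesterase, the up to 4 genes of smallest p from each further list, the 3 genes most like each member, and the label checks. Gusb, Hnf4a, Acsm3, Slc5a12 and the called or highly variable marker genes are named outside that rule, after their values were seen. Cell type marker lists were read as wholes. Lists for thick ascending limb (3 genes, 1 lower), distal convoluted tubule (2, 0 called), collecting duct (4, 0), podocyte (2, 0), endothelium (3, 0), macrophage (4, 0) and liver (5 measured, 0) were read the same way. Alternatives were a filter on low values, a replicate block, a library number term, a constant variance prior, sample weights, log2 of normalized count + 1, equal totals, a threshold of 0.1 and each library left out.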

Additional observations from a re-analysis of the deposited data

Results flagged for a closer look

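Among the 82 genes examined, 7 had a control library that stood apart from the other 4 by more than Dixon's 95% critical value of 0.71. For an unselected gene chance gives about 1 in 20. These genes were neither unselected nor independent, so the count is a description. Control replicate 2 was the one in 6 of these 7. It stood above the others for Ces1d, at 13600 normalized counts, and for Ces1g, at 1077. It was also the highest for the adipocyte genes Cidec, at 332, and Lep, at 58.4. The other 2 genes were Nucks1, at 5291, a gene most like Ces1g, and H3f3a, at 11880, a gene most like Ces2e. Both were examined only for that likeness, so they do not count apart from those members. In control replicate 1, Lrp2 was low at 100570. Without control replicate 2 Ces1d was 1.67-fold lower in Arhgef11Sglt2 and Ces1g 2.59-fold lower.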

How the results depend on the processing

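Each member kept the sign of its log2 difference in all 16 alternatives. The members were chosen on this difference, so the kept signs are a description. Ranges were -0.88 to -0.53 for Ces1d, -1.12 to -0.60 for Ces1e and -1.76 to -1.23 for Ces1f. They were -1.94 to -0.19 for Ces1g, 0.02 to 0.11 for Ces2c and -0.49 to -0.16 for Ces2e. The filter and the constant variance prior cannot change a difference, and the 16 include the 4 libraries with Adipoq at 0. The lowest values of Ces1e, Ces1g and Ces2e came from log2 of normalized count + 1, which is another scale. Counts of calls moved more, and apart from the smaller number of libraries the cause was not tested. With 354 genes called, leaving out 1 library gave 24 (without control replicate 4) to 1334 (without Arhgef11Sglt2 replicate 1), with 187, 135 and 76 without control replicates 1, 3 and 5 and 45 without Arhgef11Sglt2 replicate 3. Sample weights gave 874, a threshold of 0.1 gave 1038, and the 4 libraries with Adipoq at 0, chosen after seeing the data, gave 2390. That last count sets 3 controls against 1 Arhgef11Sglt2 library assumed to vary like them, so it is no measure of stability. The 3 members called became 0 without control replicate 4 or Arhgef11Sglt2 replicate 3 and 1 without control replicate 3 or 5, a range of 0 to 3, from which nothing is read because the same contrast chose them. The 2 other carboxylesterases called ranged from 0 to 3, and were 1 with a library number term and 1 with equal totals. Replicate numbers did not pair the samples: same-numbered libraries had correlations of -0.18, -0.09 and -0.01. With the replicate block, limma called 0 genes, 0 members and 0 other carboxylesterases, and 2166 genes had an unadjusted p under 0.05. With 3 libraries in 1 group, and Ces1c and Ces1h at a few counts, small differences were not detectable.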
